A study of Mus musculus with 9 samples.

Results

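The transcriptome of BV+ PGCLCs with NRF1 OE was compared with that of BV+ PGCLCs carrying the empty vector. The comparison took the 2 libraries labelled as Blimp1-reporter positive with NRF1 overexpression and the 2 labelled as Blimp1-reporter positive controls, which are 4 of the 9 libraries of the series, and it covered every gene in the count tables. The cells were derived from BVSC, a mouse PSC line in which mVenus reports Blimp1 (Prdm1) and CFP reports Stella (Dppa3). In both groups the cells carried the pInducer20 lentiviral vector, holding a DOX-inducible Nrf1 coding sequence (NRF1 OE) or no insert (Ctrl), were aggregated into EBs in medium with 15% FBS and received 1.5 μg/mL DOX from day 2 to day 5, so that DOX, vector and serum are shared by NRF1 OE and Ctrl. Vector-carrying cells were selected as a pool of drug-resistant cells, and BV+ cells were sorted from the EBs by their mVenus signal. The other 5 libraries, 3 NRF1 OE and 2 Ctrl, are from BV− cells, which the study calls somatic cells (whether they share EBs with the BV+ libraries is not stated). They enter here mainly through the shared estimate of spread and 1 comparison of effects.

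NRF1 is a DNA-binding transcription factor that recognises a GC-rich palindrome in the promoters of many housekeeping genes. It is best known for its control of nuclear genes for mitochondrial respiration, and methylation of the CpGs in its site prevents its binding. PGCs, the founders of the germline, are set aside from the epiblast by BMP signals. BLIMP1 then represses the somatic programme while pluripotency genes such as Pou5f1 and Nanog stay active, and PGCLCs are their counterpart made in culture from PSCs.

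The insert of the NRF1 OE vector was amplified with the primers below, which are shown because they mark what the transgene contains. Capitals mark the bases at each primer's 3′ end that match a GENCODE M21 transcript of Nrf1 (the first primer in sense, the second in antisense). The lower-case tails carry the cloning sites, except that the last base of the first primer's site is its first capital.
Nrf1-sal I-f: acgcgtcgaCATGGAGGAGCACGGAGT
Nrf1-nheI-f: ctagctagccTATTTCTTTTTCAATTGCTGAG
The capitals of the first hold the start codon and those of the second reach into the stop codon of Nrf1-202 and Nrf1-207, so reads from the transgene and from the coding part of the endogenous gene are counted under the same gene.

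The consensus NRF1 palindrome GCGCATGCGC, which reads the same on both strands, was searched as an exact match in the 300-base windows that RefSeq places around gene starts (GRCm38.p6, 250 bases before to 50 after). It occurred in 319 of 32851 windows (0.971%). A window was found for 782 of the 1054 genes that were higher with NRF1 OE (74.2%), 165 of the 301 that were lower (54.8%) and 11650 of the 16903 genes tested (68.9%). These shares are under 80%, so a comparison of the shares of promoters with the palindrome is void and is not given. Genes with the palindrome were listed only where it ended before the gene start, and not for every chromosome, so named genes may be missing. Among the genes listed that passed the test and are described by name, the palindrome was in the window of Nnat, which was higher with NRF1 OE. It was also in the windows of Halr1 and Srsf11, which were lower. These windows are shown up to the gene start with the palindrome in capitals, from chr2:157560027-157560077 (+ strand), chr6:52102905-52102948 (+ strand) and chr3:158031749-158031801 (− strand).
Nnat: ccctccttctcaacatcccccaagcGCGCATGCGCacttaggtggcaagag
Halr1: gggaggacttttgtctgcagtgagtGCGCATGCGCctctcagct
Srsf11: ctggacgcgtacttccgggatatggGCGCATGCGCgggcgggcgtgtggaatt
A match describes the letters of the window only, and whether NRF1 bound there was not tested.

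The 4 BV+ libraries held 14922217 to 19625460 counts, within the range of 13702162 to 19625460 over all 9 libraries. Levels are given as CPM, the count of a gene normalised to the total count of its library. Rank correlation of a library's deviation with transcript GC content, over 12702 genes, was −0.602 and −0.599 in the BV+ Ctrl libraries, and 0.333 and −0.00466 in the BV+ NRF1 OE libraries. This GC trend runs along the groups, so its part in a difference and that of NRF1 OE cannot be told apart from these libraries, and counts from a fit with an offset per library for GC content and length are given beside the lists whose counts it changes. The labels do not say whether replicates came from separate cultures, and p-values here measure only the spread between these libraries.

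The genes that define the 2 sets of cells were examined first. Nrf1 was at 95.7 and 99.4 CPM with NRF1 OE and at 91.1 and 90.4 CPM in Ctrl. The NRF1 OE libraries lay above the Ctrl libraries, but the log2 fold change was 0.10 (SE 0.10, adjusted p = 0.489, edgeR's quasi-likelihood test), and 0.33 (adjusted p = 0.0955) with the offsets. A rise of Nrf1 mRNA was therefore not shown at the end of DOX treatment, and this count does not check the NRF1 OE labels. Prdm1, whose reporter set the gate, was at 53.3 and 56.4 CPM with NRF1 OE and at 57.5 and 62.8 CPM in Ctrl (log2 fold change −0.13, SE 0.17, adjusted p = 0.589). In the BV− libraries Prdm1 was at 42.4 to 62.0 CPM, a range that overlaps that of the BV+ libraries, so Prdm1 mRNA did not separate the sorted fractions. Dppa3, which codes for the maternal and germline chromatin protein Stella, rose. It was at 96.6 and 86.3 CPM with NRF1 OE and at 60.3 and 56.8 CPM in Ctrl, with no overlap (log2 fold change 0.64, SE 0.14, adjusted p = 0.0252). In Ctrl, means of Pou5f1, Nanog and Dppa3 were 998, 462 and 80.1 CPM in BV− and 834, 435 and 58.5 CPM in BV+ cells. Lin28a went the other way, at 306 CPM in BV− and 341 CPM in BV+ cells. The names PGCLCs and somatic cells are therefore the study's names for the sorted fractions, and these mRNAs do not bear them out.

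More genes rose than fell with NRF1 OE in the fit of all 9 libraries, a split that moved with the fit. Of 16903 genes tested, 1054 rose (6.24%) and 301 fell (1.78%) at an adjusted p under 0.05. The median log2 fold change was 0.84 among the genes that rose and −1.20 among those that fell, beside 0.036 over all genes. The split between rises and falls moved with the scaling, to 775 and 513 with upper-quartile in place of TMM factors. When genes were instead counted by an unadjusted p under 0.05 and a log2 fold change beyond 0.58 in either direction, 1653 genes were higher (9.78%) and 1217 lower (7.20%), and without regard to any test both NRF1 OE libraries lay above both Ctrl libraries for 6433 genes (38.1%) and below them for 5413 (32.0%). A fit of the 4 BV+ libraries alone called 2096 of 16286 genes higher (12.9%) and 2275 lower (14.0%), and these included 1053 and 296 of the genes called in the fit of 9. Leaving out NRF1 OE replicate 1, Ctrl replicate 1 or Ctrl replicate 2 left 0 genes with an adjusted p under 0.05 by edgeR in each case, with 2253, 3587 and 2686 genes at an unadjusted p under 0.05.

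The genes that rose and those that fell were described by biotype and GC content. Of the genes that rose, 1019 (96.7%) code for proteins and 5 (0.474%) were long noncoding RNAs. Of those that fell, 173 (57.5%) code for proteins and 90 (29.9%) were long noncoding RNAs, beside 82.6% and 7.93% of all genes tested. This contrast moved with the fit. Among annotated genes that fell, 85.0% code for proteins in the fit of the BV+ libraries alone, beside 85.1% of all. With the offsets these shares were 76.0% and 83.8%. The genes that fell in the fit of 9 also had low levels, with a median of 6.43 CPM, beside 15.8 CPM for all genes tested. Median GC content of the transcript was 54.6% for genes that rose, 45.8% for those that fell and 49.8% for all genes tested. The median log2 fold change went from −0.29 in the lowest to 0.37 in the highest of 5 groups of genes ordered by GC content, and the share that rose from 1.86% to 17.8%. With the offsets, 1048 of 16662 genes rose and 886 fell, and the median GC contents were 50.04% and 49.67%. Counts of a list in an alternative fit are to be read beside those of all genes in that fit.

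**Figure D1:**
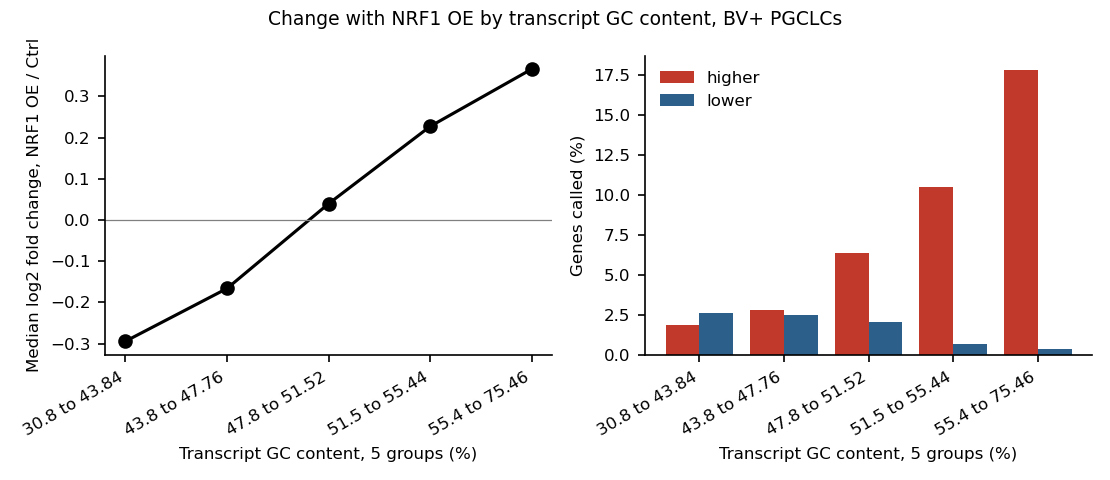
Median log2 fold change with NRF1 OE in BV+ PGCLCs (left, points) and share of genes higher or lower at an adjusted p under 0.05 (right, bars in %), for 5 groups of genes ordered by transcript GC content (x axis, %). The median moves from −0.29 in the lowest group to 0.37 in the highest, and the share of genes that rose from 1.86% to 17.8%.

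Among genes with a mean of at least 10 CPM, the leading rises were smooth and striated muscle genes and fibrillar collagens. Acta2, the smooth muscle actin, was at 506 and 270 CPM with NRF1 OE (mean 388 ± 167, SD, n = 2) and at 83.2 and 72.9 CPM in Ctrl (mean 78.1 ± 7.30, SD, n = 2). Its log2 fold change was 2.31 (SE 0.27, adjusted p = 0.00966, edgeR). Col1a2, a chain of type I collagen, was at 602 and 368 CPM against 99.8 and 102 CPM (log2 fold change 2.26, SE 0.27, adjusted p = 0.00966). In both genes the first NRF1 OE library was the highest and the Ctrl libraries lay close together. Col1a1, the partner chain of type I collagen, had the smallest adjusted p of these genes, 0.00669, at 80.2 and 66.0 CPM against 17.7 and 19.9 CPM (log2 fold change 1.96, SE 0.19). Col5a2, a chain of type V collagen that assembles with type I, was at 49.5 and 28.6 CPM against 8.13 and 9.65 CPM. The sarcomere genes Myh7, the slow myosin heavy chain, and Acta1, the skeletal muscle actin, rose by 2.07 and 2.02 on the log2 scale. Myh7 was at 140 and 86.2 CPM against 26.5 and 27.3 CPM, and it overlaps an antisense RNA whose reads may be counted with it, since use of the strand in the counting was not stated.

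The other large rises were spread over signalling, junction and cytoskeletal proteins. Tagln, the actin-bundling protein transgelin of smooth muscle, was at 73.9 and 35.3 CPM with NRF1 OE and at 13.2 and 15.4 CPM in Ctrl (log2 fold change 1.93, SE 0.35, adjusted p = 0.0158). Synpo2l, an actin-associated protein of muscle, and Jph2, which couples the surface membrane to the sarcoplasmic reticulum in heart cells, rose by 2.02 and 1.89 on the log2 scale. Scube1, a secreted glycoprotein, rose by 2.21, Tnfaip2, a TNF-inducible gene, by 2.01, and Adgra2, a WNT7 co-receptor of brain endothelium, by 1.95. The lowest NRF1 OE value of each of these genes lay above its highest Ctrl value, which the choice of genes required. Among genes that rose, the 5 with the highest level were Actb, Rpl8, Rack1, Rps3 and Flna, with log2 fold changes between 0.45 and 0.50. Of these, Rpl8 was at 0.01 (adjusted p = 0.938) with the offsets.

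**Figure D2:**
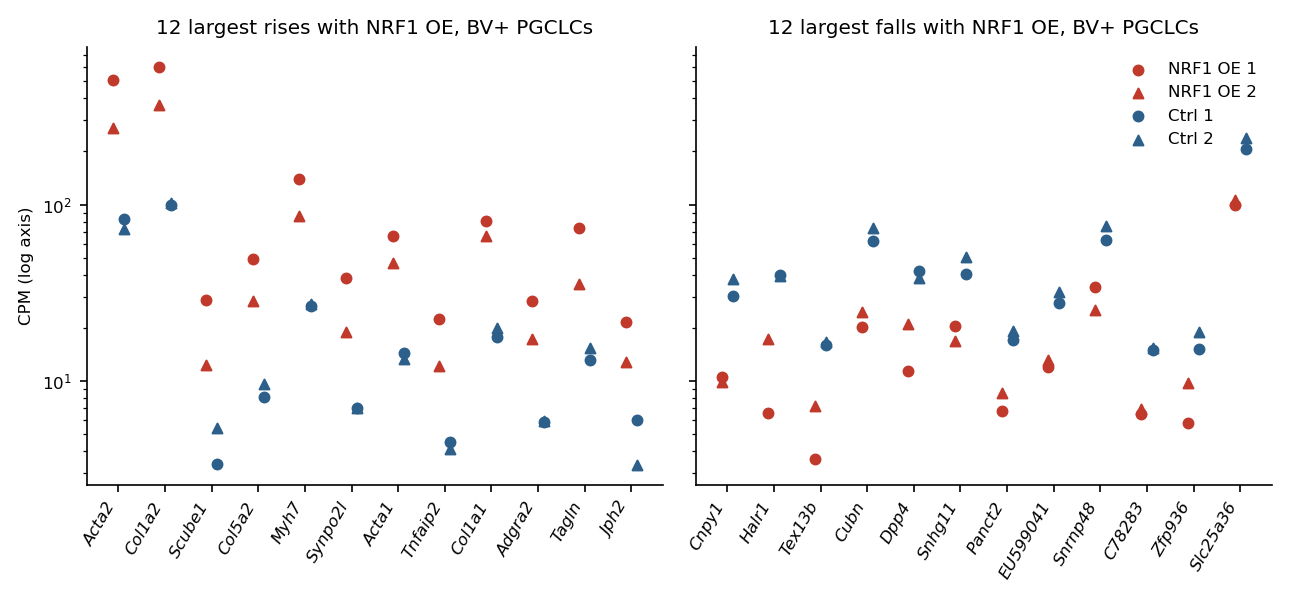
CPM in each of the 4 BV+ libraries (log axis) for the 12 largest rises (left) and 12 largest falls (right) with NRF1 OE among genes with a mean of at least 10 CPM; circles and triangles are replicates 1 and 2, red NRF1 OE and blue Ctrl. NRF1 OE and Ctrl libraries do not overlap for any gene shown, which the choice of genes required, and NRF1 OE replicate 1 is the highest library for Acta2 at 506 CPM and Col1a2 at 602 CPM.

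Genes of the actin cytoskeleton and contractile apparatus rose in part. Of 40 tested, 26 rose (65%, beside 6.24% of all genes tested) and 0 fell, with a median log2 fold change of 0.66. The group spans the non-muscle machinery present in every cell and muscle-restricted genes. Actb and Actg1, the cytoplasmic actins, rose by 0.48 and 0.84 on the log2 scale, and Actg1 was at 492 and 323 CPM against 219 and 236 CPM. Myl9, the regulatory myosin light chain of smooth muscle, was at 69.6 and 64.9 CPM against 34.5 and 33.8 CPM (log2 fold change 0.98, SE 0.12, adjusted p = 0.00966). Its NRF1 OE libraries lay closer together than those of Acta2 or Tagln. Tpm1, a tropomyosin that coats actin filaments, was at 610 and 511 CPM against 318 and 332 CPM, and Flnc, the muscle filamin, at 238 and 136 CPM against 75.03 and 81.24 CPM. Des, the muscle intermediate filament desmin, and Tnnc1, the calcium sensor of slow and cardiac muscle, rose by 1.46 and 1.87. Not every member passed the test: Cfl1 and Pfn1, actin-turnover proteins that were among the most abundant of the group, had log2 fold changes of 0.36 (adjusted p = 0.0587) and 0.47 (adjusted p = 0.0640). Enah, an actin polymerisation factor, was the lowest at −0.63 (adjusted p = 0.0740). With the offsets 26 members rose and 1 fell, the latter being Enah (adjusted p = 0.0404).

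Among 41 extracellular matrix genes 19 rose (46.3%, beside 6.24% of all genes tested without the offsets) and 0 fell, both without and with the offsets. The median log2 fold change was 0.56 without and 0.26 with them. The rises included interstitial matrix and the enzymes that build it. Bgn, the small proteoglycan biglycan, was at 23.3 and 16.9 CPM with NRF1 OE against 6.88 and 5.09 CPM in Ctrl (log2 fold change 1.76, SE 0.23, adjusted p = 0.0107). Loxl1, a lysyl oxidase that crosslinks elastic fibres, rose by 1.57, and Serpinh1, the collagen chaperone of the endoplasmic reticulum, was at 439 and 255 CPM against 143 and 140 CPM (log2 fold change 1.30, adjusted p = 0.0165). Sparc, a collagen-binding matricellular protein, was at 308 and 205 CPM against 123 and 121 CPM. Mmp14, a membrane-bound collagenase, and Gpc3, a cell-surface heparan sulfate proteoglycan, rose by 1.12 and 1.04. Several matrix genes at high levels did not pass the test, with log2 fold changes of 0.24 for the fibronectin gene Fn1 (adjusted p = 0.103), 0.27 for the type XVIII collagen gene Col18a1 (adjusted p = 0.140), 0.02 for the laminin gene Lamc1 (adjusted p = 0.929) and 0.15 for the type IV collagen gene Col4a1 (adjusted p = 0.603). Hspg2, which codes for the basement membrane proteoglycan perlecan, did rise, from 491 and 529 CPM in Ctrl to 914 and 677 CPM.

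YAP and TEAD target genes and growth-response genes rose in part. Of 19 YAP and TEAD genes 7 rose (36.8%, beside 6.24% of all genes tested) and 0 fell (median log2 fold change 0.44), and with the offsets 8 rose and 1 fell. Thbs1, the matricellular protein thrombospondin 1, was at 92.5 and 53.9 CPM against 20.3 and 23.4 CPM (log2 fold change 1.74, adjusted p = 0.0146), and Axl, a receptor tyrosine kinase, at 28.4 and 20.1 CPM against 9.11 and 11.1 CPM. Ccn1 and Ccn2, secreted matricellular proteins that are standard readouts of YAP, rose by 1.15 and 0.54. The log2 fold change of the coactivator gene Yap1 itself was −0.06 (adjusted p = 0.725). Of 22 immediate early genes, which respond within minutes to serum, stress or growth factors, 8 rose (36.4%) and 0 fell (median 0.55), and 5 rose with the offsets. Socs3, a feedback inhibitor of cytokine signalling, was at 43.5 and 24.7 CPM against 9.63 and 12.3 CPM, and Zfp36, an RNA-binding protein that destabilises inflammatory mRNAs, at 42.6 and 32.4 CPM against 14.2 and 16.1 CPM. Fos was at 78.2 and 56.0 CPM against 27.3 and 42.4 CPM and did not pass the test (adjusted p = 0.149).

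Genes that respond to BMP, the signal that induces PGCs, rose in part. Of 13 tested, 5 rose (38.5%, beside 6.24% of all genes tested) and 0 fell (median log2 fold change 0.70), but with the offsets 2 rose and 1 fell. Id3, an inhibitor of bHLH factors, was at 132 and 71.2 CPM with NRF1 OE against 28.9 and 33.4 CPM in Ctrl (log2 fold change 1.71, SE 0.29, adjusted p = 0.0134). Bambi, a BMP pseudoreceptor, was at 29.0 and 19.2 CPM against 11.01 and 12.22 CPM, and both genes remained past the threshold with the offsets. Id1 was higher by 0.70 on the log2 scale (adjusted p = 0.0481), which did not pass with the offsets (adjusted p = 0.154). Smad7, an inhibitory SMAD, was at 78.4 and 82.5 CPM against 95.1 and 102 CPM and did not pass the test (adjusted p = 0.103), and it was the member called lower with the offsets (adjusted p = 0.00792).

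Markers of other cell types that a sorted EB fraction could hold moved with these genes. Of 15 fibroblast and mesenchyme markers tested 8 rose (53.3%) and 1 fell (6.67%), beside 6.24% and 1.78% of all genes tested, and with the offsets 7 and 1. The summed level of the list was 522 and 399 CPM with NRF1 OE against 242 and 233 CPM in Ctrl. Vim, the mesenchymal intermediate filament vimentin, was at 235 and 174 CPM against 78.6 and 79.0 CPM and had the highest level of the list. Pdgfrb, the pericyte PDGF receptor, was at 15.1 and 10.0 CPM against 3.87 and 2.94 CPM, Foxc1, a mesodermal forkhead factor, at 17.6 and 13.9 CPM against 4.92 and 4.04 CPM, and Cd248, the pericyte and stromal antigen endosialin, rose by 2.36. Pdgfra, the PDGF receptor of early mesenchyme and fibroblasts, fell instead, to 3.71 and 2.94 CPM from 6.82 and 8.13 CPM (log2 fold change −1.17, adjusted p = 0.0174). Several defining fibroblast genes were at or near 0: Dcn at 0.197 to 0.515 CPM, Lum at 0 to 0.109 CPM, Prrx1 at 0.131 to 0.927 CPM and Tcf21 at 0 to 0.103 CPM. In bulk libraries, more cells of a type and more RNA per cell cannot be told apart.

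Endothelial and blood markers were examined in the same way. Of 14 tested, 5 rose (35.7%) and 0 fell, beside 6.24% and 1.78% of all genes tested (median log2 fold change 0.79). The summed level was 199 and 225 CPM with NRF1 OE against 200 and 189 CPM in Ctrl, most of it from Pecam1, which is also expressed in pluripotent cells. Kdr and Flt1, the VEGF receptors, were at 25.5 and 17.1 CPM against 6.55 and 8.55 CPM and at 14.2 and 9.85 CPM against 4.06 and 5.25 CPM. Cdh5, the endothelial cadherin, was at 7.47 and 5.28 CPM against 2.36 and 1.89 CPM. All 3 genes rose (adjusted p = 0.0125, 0.0246 and 0.0204, edgeR). The blood genes Ptprc and Gata1 stayed at 0 to 0.0655 CPM and 0.103 to 0.328 CPM. Of 12 mesoderm and cardiac markers 2 rose (16.7%), Mef2c and Nkx2-5, with 1 higher and 2 lower with the offsets. The cardiac myosin gene Myh6 was at 11.3 and 7.73 CPM against 5.70 and 6.40 CPM (adjusted p = 0.0755). Of 20 epithelial and endodermal markers 2 rose (10%) and 1 fell (5%, median log2 fold change −0.13), and with the offsets 2 rose and 3 fell (median −0.40). Krt8 and Krt18, the keratin pair of simple epithelia, were at 181 and 116 CPM against 55.3 and 56.9 CPM and at 161 and 105 CPM against 58.1 and 57.6 CPM, while the endodermal factor Foxa1 was at 0.464 and 0.163 CPM against 1.18 and 1.42 CPM. The part of these cell types in the rise of the contractile and matrix genes was not tested.

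Imprinted genes, which are expressed from 1 parental allele and include many regulators of embryonic growth, changed in both directions. Of 27 tested, 10 rose (37%) and 2 fell (7.41%), beside 6.24% and 1.78% of all genes tested (median log2 fold change 0.60). The counts with the offsets were also 10 and 2. H19, a noncoding RNA abundant in mesoderm and endoderm of the embryo, was at 2008 and 951 CPM with NRF1 OE against 420 and 401 CPM in Ctrl (log2 fold change 1.85, SE 0.37, adjusted p = 0.0210). Its neighbour Igf2, a fetal growth factor, was at 19.4 and 9.09 CPM against 5.18 and 4.93 CPM. Dlk1, Plagl1, Grb10, Peg3, Sgce, Ndn, Gnas and Nnat rose as well, by 0.84 to 1.32 on the log2 scale, and Cdkn1c, an imprinted CDK inhibitor from another list, was at 57.3 and 33.0 CPM against 14.6 and 17.1 CPM. The noncoding RNAs Meg3 and Rian, which lie downstream of Dlk1 in 1 imprinted domain, fell, Meg3 to 157 and 115 CPM from 223 and 278 CPM and Rian to 278 and 239 CPM from 388 and 433 CPM. With the offsets neither Rian (adjusted p = 0.687) nor Igf2 (adjusted p = 0.0537) passed the test, and Meg3 and Rian overlap small RNAs. Mest, Peg10 and Snrpn, imprinted genes at high levels, had log2 fold changes of 0.16, 0.02 and −0.0028 and did not pass the test.

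**Figure D3:**
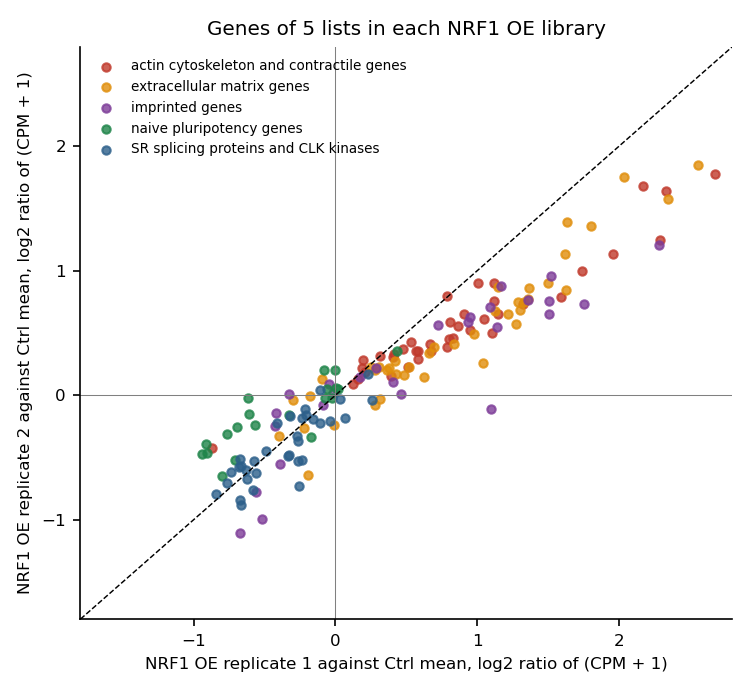
Each NRF1 OE library against the mean of the 2 Ctrl libraries (log2 ratio of CPM + 1; x axis replicate 1, y axis replicate 2; dashed line, equal change) for the genes of 5 lists, coloured by list. Contractile, matrix and imprinted genes that rose lie mostly below the dashed line: of the 26, 19 and 10 called higher, 25, 19 and 10 were higher in replicate 1 than in replicate 2.

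The size of the rises differed between the NRF1 OE libraries. Of the 1054 genes that rose, 1027 (97.4%) were higher in NRF1 OE replicate 1 than in replicate 2, beside 52.1% of all genes tested. The median absolute log2 ratio between the NRF1 OE libraries was 0.35 for these genes and 0.19 for all genes, with 1 CPM added to each value. Between the Ctrl libraries the corresponding values were 0.088 and 0.10. Both NRF1 OE libraries lay above both Ctrl libraries for every one of the 1054 genes, a separation that choosing genes by this test favours. The libraries that differed in size of the rise also differed in GC trend (0.333 and −0.00466), and the part of that trend was not tested.

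PGC specification genes were counted next. Of 20 tested, 2 rose (10%, beside 6.24% of all genes tested) and 0 fell, with a median log2 fold change of 0.14. With the offsets 3 rose and 1 fell (median −0.064). In the fit of the BV+ libraries alone 5 rose and 0 fell, beside 12.9% and 14.0% of all genes tested in that fit. The genes that rose without the offsets were Dppa3 and Fut4, and Fut4 was at 3.92 and 2.72 CPM against 0.983 and 1.42 CPM. The specification factors Prdm14 and Tfap2c had log2 fold changes of −0.29 (SE 0.15, adjusted p = 0.198) and 0.05 (SE 0.14, adjusted p = 0.839). Pou5f1 was at 841 and 906 CPM against 870 and 798 CPM and Nanog at 360 and 427 CPM against 442 and 427 CPM, so the groups overlapped for both. Nanos3, an RNA-binding protein needed for PGC survival, was at only 2.69 to 4.08 CPM in the BV+ libraries and at 3.79 to 8.91 CPM in the BV− libraries. Dnd1, its partner in PGC survival, was at 22.98 and 16.76 CPM against 13.5 and 12.5 CPM and did not pass the test (log2 fold change 0.61, adjusted p = 0.0534).

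Naive pluripotency genes had a downward median, and a few of them fell. Of 20 tested, 0 rose and 3 fell (15%, beside 1.78% of all genes tested), with a median log2 fold change of −0.28. With the offsets 0 rose and 7 fell. In the fit of the BV+ libraries alone 1 rose and 9 fell, beside 12.9% and 14.0% of all genes tested in that fit. Zfp42, the naive marker REX1, was at 197 and 268 CPM with NRF1 OE against 374 and 367 CPM in Ctrl (log2 fold change −0.67, SE 0.17, adjusted p = 0.0404). Zfp57, the zinc finger protein that keeps methylation at imprinted control regions, was at 65.1 and 72.3 CPM against 109 and 120 CPM (log2 fold change −0.73, adjusted p = 0.0296). Klf4, a reprogramming factor, was at 7.27 and 8.44 CPM against 13.2 and 11.8 CPM. The core naive gene Esrrb, in contrast, was at 368 and 376 CPM against 370 and 356 CPM (log2 fold change 0.04, adjusted p = 0.827), and Dppa5a at 763 and 760 CPM against 803 and 744 CPM. The naive-state noncoding RNA Lncenc1 fell to 189 and 250 CPM from 333 and 358 CPM.

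Germline genes that are kept silent by promoter methylation in somatic cells had a downward median. Of 24 tested, 0 rose and 2 fell (8.33%, beside 1.78% of all genes tested), with a median log2 fold change of −0.40. In the fit of the BV+ libraries alone 0 rose and 9 fell, beside 12.9% and 14.0% of all genes tested in that fit. With the offsets 2 rose, Sycp3 and Tdrkh, and 5 fell. Sycp1, a structural protein of the meiotic synaptonemal complex, was at 5.67 and 4.95 CPM against 10.9 and 13.2 CPM, and Asz1, a piRNA-pathway protein, at 3.45 and 3.48 CPM against 6.09 and 7.66 CPM. Dazl, the RNA-binding protein that licenses germ cells for gametogenesis, was at 32.7 and 59.4 CPM against 78.8 and 90.2 CPM. All of its NRF1 OE values lay below its Ctrl values, but the NRF1 OE libraries differed widely and the change did not pass the test (log2 fold change −0.88, SE 0.30, adjusted p = 0.0816).

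**Figure D4:**
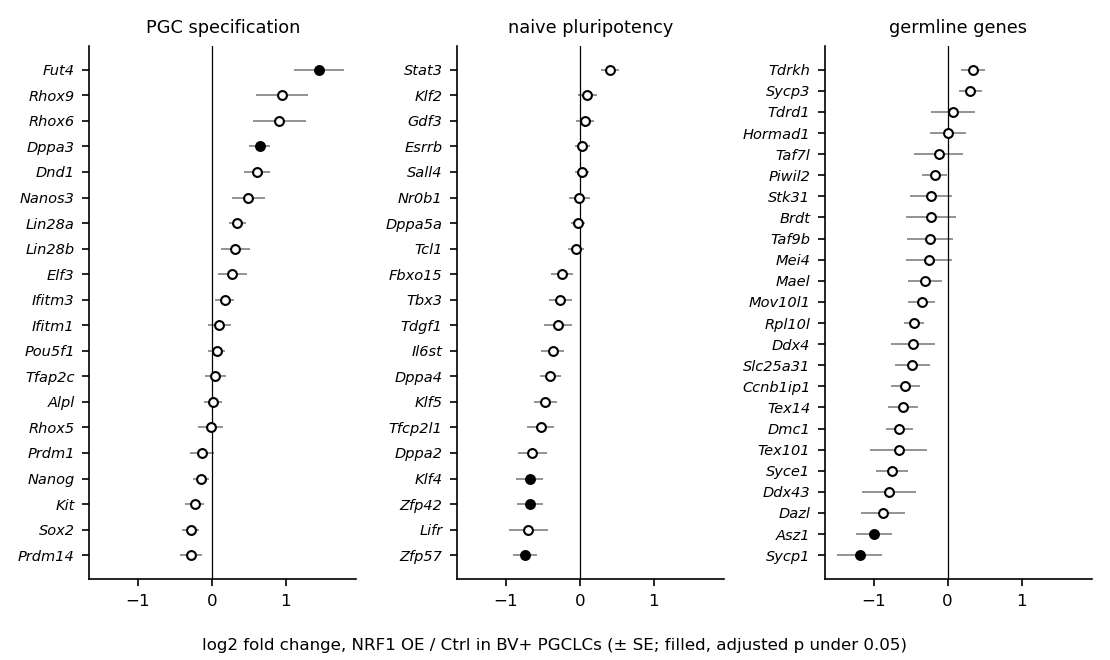
Log2 fold change with NRF1 OE in BV+ PGCLCs (x axis, points ± SE, 2 against 2 libraries) for PGC specification, naive pluripotency and germline genes; filled points passed an adjusted p under 0.05. Dppa3 (0.64) and Fut4 (1.45) rose, and Zfp42, Klf4, Zfp57, Asz1 and Sycp1 fell, with Sycp1 the lowest at −1.19.

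The largest falls are given among genes with a mean of at least 10 CPM. Cnpy1, a regulator of FGF receptor signalling, was at 10.6 and 9.85 CPM with NRF1 OE against 30.2 and 38.0 CPM in Ctrl (log2 fold change −1.74, SE 0.26, adjusted p = 0.0125). Halr1, a noncoding RNA beside the Hoxa cluster, was at 6.60 and 17.3 CPM against 40.04 and 39.34 CPM. Cubn, an endocytic receptor of visceral endoderm and kidney, was at 20.4 and 24.8 CPM against 62.0 and 73.3 CPM, and Dpp4, a cell-surface peptidase, at 11.39 and 20.95 CPM against 41.8 and 38.5 CPM. The noncoding RNAs Snhg11 and Panct2 fell by 1.28 and 1.25 on the log2 scale. Tex13b, Snrnp48, a protein of the minor spliceosome, Slc25a36, a mitochondrial pyrimidine carrier, and the zinc finger gene Zfp936 fell by 1.11 to 1.60, as did EU599041 and C78283. Slc25a36 had the highest level of these, at 98.9 and 106 CPM against 205 and 237 CPM. The most abundant gene that fell was Mat2a, the S-adenosylmethionine synthase, at 378 and 371 CPM against 481 and 503 CPM (log2 fold change −0.39, adjusted p = 0.0458), and with the offsets it did not pass (adjusted p = 0.224).

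Genes of RNA processing and of DNA repair had downward medians. Of 34 SR splicing proteins and CLK kinases (median log2 fold change −0.40) 0 rose and 3 fell (8.82%, beside 1.78% of all genes tested). These were Srsf11 at 149 and 166 CPM against 221 and 254 CPM, Rsrp1, an SR-related protein, at 87.7 and 77.5 CPM against 124 and 140 CPM, and Ccnl2, a cyclin L of nuclear speckles, at 70.3 and 67.9 CPM against 101 and 117 CPM. Of 40 DNA damage response and repair genes 1 fell (2.5%), Hus1, a subunit of the checkpoint clamp (median of the list −0.40). In the fit of the BV+ libraries alone 20 of the 34 and 25 of the 40 fell, beside 14.0% of all genes tested in that fit. In the fit with offsets 8 and 3 fell, beside 886 of 16662 genes. The median GC contents of these lists were 42.4% and 45.0%, both under the 49.8% of all genes tested. Of 354 zinc finger genes named Zfp 13 rose and 6 fell, with a median of −0.27, and these shares were 3.67% and 1.69%, beside 6.24% and 1.78% of all genes tested. In the fit of the BV+ libraries alone 20 rose and 87 fell, beside 12.9% and 14.0% of all genes tested there. With the offsets 9 rose and 19 fell, beside 1048 and 886 of 16662 genes.

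**Figure D5:**
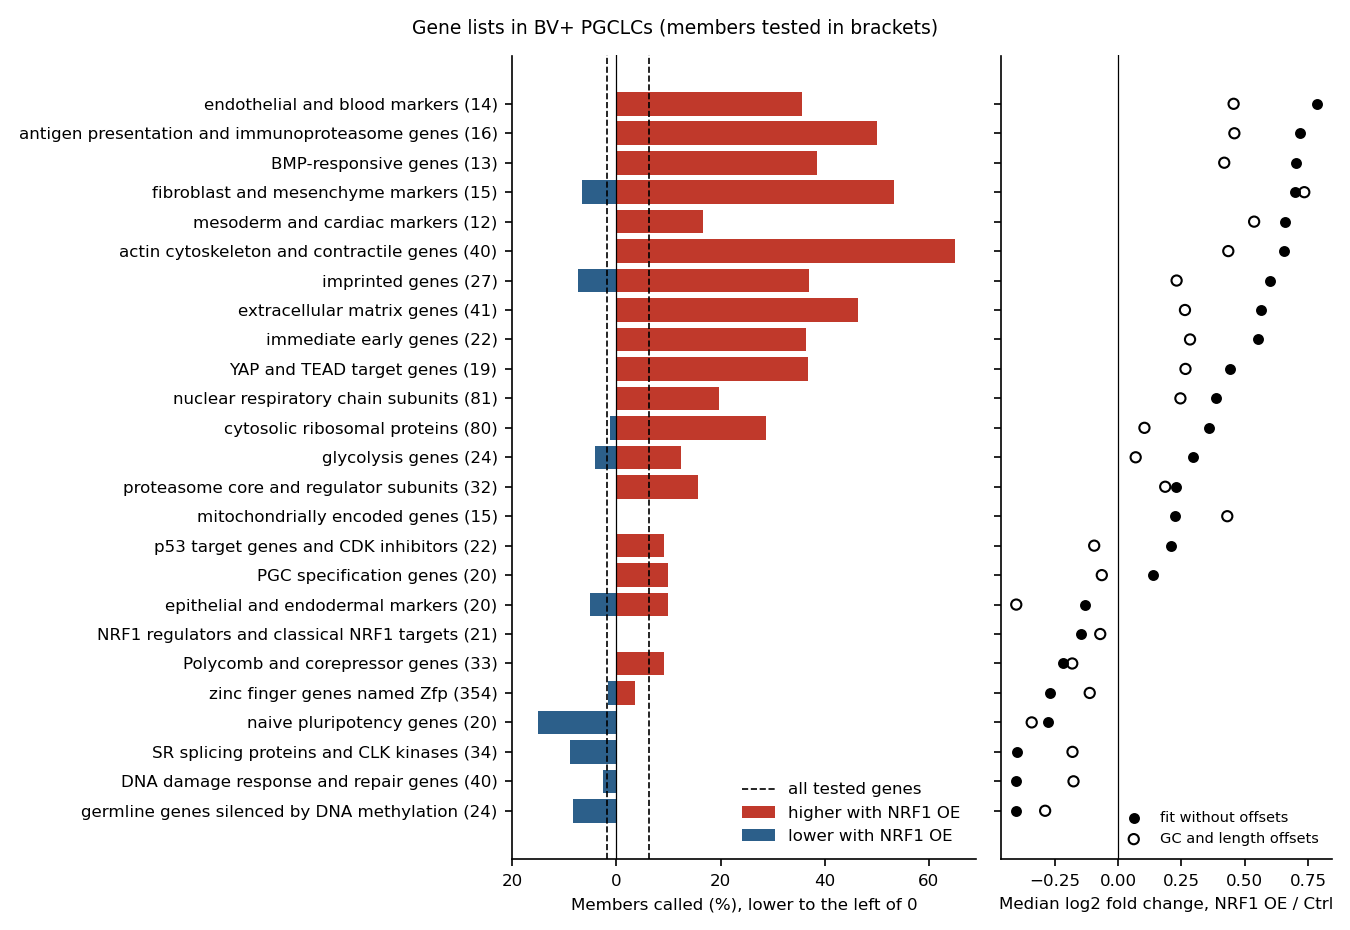
Share of the tested members of 25 gene lists that were higher (red) or lower (blue) with NRF1 OE at an adjusted p under 0.05 (left, %; dashed lines, 6.24% and 1.78% of all genes tested) and median log2 fold change of each list (right; filled, fit without offsets; open, GC and length offsets). The largest shares are 26 of 40 contractile genes and 8 of 15 fibroblast and mesenchyme markers, and no member of the NRF1 target list or of the mitochondrially encoded genes was called.

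The regulators and classical targets of NRF1 on the list examined did not pass the test. Of 21 tested, 0 rose and 0 fell (median log2 fold change −0.15). At an unadjusted p under 0.05 by edgeR 0 were higher and 3 lower (Gabpa, Gabpb2 and Tfb2m), and DESeq2 called 0 higher and 1 lower. In the fit of the BV+ libraries alone 0 rose and 5 fell, beside 12.9% and 14.0% of all genes tested in that fit, and with the offsets 0 and 3. The log2 fold change of Tfam, which packages mitochondrial DNA, was −0.15 (SE 0.11, adjusted p = 0.365), that of the cytochrome c gene Cycs was −0.15 (SE 0.16, adjusted p = 0.506), and that of Tomm20, a mitochondrial import receptor, was 0.13 (SE 0.10, adjusted p = 0.379). The 15 mitochondrially encoded genes, which are transcribed inside the organelle, also gave 0 calls by edgeR, with 4 higher and 0 lower at an unadjusted p under 0.05 1 called higher by DESeq2 and 1 higher with the offsets, and mt-Co1 was at 24180 and 18240 CPM against 17360 and 18910 CPM. Nuclear genes of the respiratory chain rose in part: of 81 tested 16 rose (19.8%, beside 6.24% of all genes tested) and 0 fell (median 0.39). With the offsets 21 rose and 1 fell. In the fit of the BV+ libraries alone 43 rose and 1 fell, beside 12.9% and 14.0% of all genes tested there. Ndufb11, an accessory subunit of complex I, was at 81.6 and 63.8 CPM against 48.4 and 43.2 CPM (log2 fold change 0.67, adjusted p = 0.0385), and Ndufs5 at 10.5 and 6.64 CPM against 3.21 and 4.35 CPM. The catalytic ATP synthase gene Atp5b, the most abundant of the list, was at 2211 and 2133 CPM against 1879 and 1802 CPM and did not pass the test (adjusted p = 0.131).

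Genes of protein synthesis, protein turnover and glycolysis were counted in the same way. Of 80 cytosolic ribosomal protein genes 23 rose (28.8%) and 1 fell (1.25%), beside 6.24% and 1.78% of all genes tested, with a median log2 fold change of 0.36. With the offsets 18 rose and 1 fell, with a median of 0.10. In the fit of the BV+ libraries alone 35 rose and 3 fell, beside 12.9% and 14.0% of all genes tested there. Rplp0, a stalk protein, was at 1725 and 1304 CPM against 998 and 958 CPM, whereas Rpl4 was at 2291 and 2683 CPM against 2641 and 2489 CPM with overlapping groups. Many of these genes have processed pseudogenes, so the split of their reads is uncertain, also for Rpl34, Rpl29 and Rps3a1, whose log2 fold changes were 1.48, 1.18 and 1.08. Of 32 proteasome subunits 5 rose (15.6%) and 0 fell, all 5 of them from the catalytic core particle, among them Psmb4 at 401 and 345 CPM against 258 and 252 CPM. In the fit of the BV+ libraries alone 12 rose and 1 fell. With the offsets 7 rose and 1 fell, and Psmb5 (adjusted p = 0.163) and Psma7 (adjusted p = 0.140) no longer passed. Of 16 genes of antigen presentation and the immunoproteasome 8 rose (50%) and 0 fell (median 0.72). With the offsets 7 rose and 0 fell, and in the fit of the BV+ libraries alone 12 and 0. B2m, the light chain of MHC class I, was at 44.9 and 33.1 CPM against 23.59 and 19.98 CPM, and Psmb10, an immunoproteasome subunit, at 26.3 and 21.8 CPM against 14.0 and 12.8 CPM. Of 24 glycolysis genes 3 rose (12.5%) and 1 fell (4.17%), beside 6.24% and 1.78% of all genes tested. With the offsets 3 rose and 3 fell, and in the fit of the BV+ libraries alone 8 and 3. Slc2a1, the glucose transporter GLUT1, rose to 646 and 479 CPM from 337 and 334 CPM, Eno1 and Eno3, the enolases, rose by 0.62 and 1.21 on the log2 scale, and Pfkp, a phosphofructokinase isoform, fell to 71.1 and 79.9 CPM from 135 and 150 CPM (log2 fold change −0.92, adjusted p = 0.0127).

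Chromatin regulators and cell-cycle inhibitors were the last groups examined. Of 33 Polycomb and corepressor genes 3 rose (9.09%, beside 6.24% of all genes tested) and 0 fell, although the median log2 fold change was −0.22. With the offsets 2 rose and 7 fell. In the fit of the BV+ libraries alone 4 rose and 14 fell, beside 12.9% and 14.0% of all genes tested in that fit. Phc2, a subunit of PRC1, was at 119 and 66.4 CPM with NRF1 OE against 36.8 and 33.7 CPM in Ctrl (log2 fold change 1.39, adjusted p = 0.0164), Phf19 and Cbx2 rose by 0.53 and 0.48 but did not pass with the offsets (adjusted p = 0.0786 and 0.251), and Phc1, the paralogue of Phc2 typical of pluripotent cells, was at 483 and 599 CPM against 643 and 636 CPM and did not pass the test (adjusted p = 0.203), though it was called lower with the offsets (adjusted p = 0.0315). Of 22 p53 target genes and CDK inhibitors 2 rose (9.09%), Cdkn1c and Ddit4, and with the offsets 1 rose and 2 fell and Ddit4 no longer passed (adjusted p = 0.204). The log2 fold change of Trp53 itself was 0.23 (adjusted p = 0.175).

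The effect of NRF1 OE in BV+ PGCLCs was set against that in BV− cells by a test of the difference. By edgeR 0 of 16903 genes differed at an adjusted p under 0.05, with 932 at an unadjusted p under 0.05, and DESeq2 called 23. A change particular to the BV+ cells was therefore not shown by the main test for any gene named here. The log2 fold change in BV− cells had the same sign for 953 of the 1054 genes that rose (median 0.46) and 297 of the 301 that fell (median −0.69). Over all genes tested the sign was the same for 13423 of 16903. The GC trend ran along the groups in BV− cells too, at 0.0581, 0.695 and 0.58 with NRF1 OE and −0.594 and −0.515 in Ctrl. Its part in the shared signs was not tested. Kdr and Flt1 had log2 fold changes of 1.49 and 1.36 in BV+ and −0.49 and −0.64 in BV− cells (adjusted p of the difference 0.455 and 0.493), and Peg3 and Grb10 had 0.91 and 1.10 in BV+ and −0.47 and −0.14 in BV− cells (adjusted p of the difference 0.493 and 0.613). Acta1, Tagln, Dppa3 and Cnpy1, on the other hand, had log2 fold changes of the same sign in both fractions, for Acta1 2.02 and 1.47 and for Dppa3 0.64 and 0.84.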

How the data were processed

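Poly(A) mRNA of sorted BV+ and BV− cells was sequenced, and groups and replicate numbers were taken from the sample labels. The authors aligned reads to GRCm39 with HISAT2 2.0.1 and deposited raw counts per gene made with HTSeq 0.6.1 (56691 genes per library). Whether the counting used strand is not given in the sources used here. The authors also deposited FPKM. These were used only to derive each gene's length from its count and the library total, and no level printed here is an FPKM.

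Counts were tested with edgeR 4.0.16 (R 4.3.3; TMM factors, filterByExpr, glmQLFit and glmQLFTest) in 1 fit of all 9 libraries with 4 groups, contrast BV+ NRF1 OE minus BV+ Ctrl, with Benjamini-Hochberg adjustment over 16903 genes. Genes were called at an adjusted p under 0.05. Each SE is the absolute log2 fold change divided by the square root of the test's F value, so it draws on the spread of all 9 libraries. CPM were scaled to each library's total count over the genes tested, multiplied by its TMM factor. All p-values are two-sided, and edgeR's log2 fold changes carry its default prior count. The log2 CPM behind the GC trends and the correlations of deviations carry a prior count of 2. The offset fit removed each library's smooth trend over transcript GC content and gene length (mgcv 1.9.3) for 16662 genes. GC content came from GENCODE M21 on GRCm38, and length from the deposited counts and FPKM. Steps were tested on simulated counts. Alternatives were DESeq2 1.42.0, other size factors, no filter, the BV+ libraries alone, a replicate block and each library left out.

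The members of the 27 gene lists, the comparison and the rules were chosen with earlier results of these data known. Counts for 2 of the lists, neuroectoderm markers and formative and primed epiblast genes, are not reported here. The genes named were Nrf1, Prdm1 and Dppa3, the 12 largest rises and 12 largest falls (adjusted p under 0.05, mean of at least 10 CPM, groups not overlapping, no Gm, Rik or -ps symbol), the 5 most abundant genes called in each direction, and per list up to 5 called members in each direction with a mean of at least 5 CPM and up to 4 abundant members not called. Other list members were named after their values were seen: markers at or near 0, genes that set a list's extreme or sum, and further examples of a list's roles. Sequences came from RefSeq (GRCm38.p6) and the study's table of primers.

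Each BV+ group holds 2 libraries, and depth was 14922217 to 19625460 counts in the BV+ libraries. Counting error is small at high levels, but not at levels of a few CPM or less. With NRF1 OE, Acta2 rests on 9818 and 4958 counts and Asz1 on 67 and 64.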

Additional observations from a re-analysis of the deposited data

How the results depend on the processing

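The count of genes called in BV+ cells depended strongly on the fit. In place of 1355 genes (1054 higher, 301 lower), DESeq2 called 2106 (602 lower), DESeq2 on the BV+ libraries alone 3321 (1709 and 1612), edgeR on the BV+ libraries alone 4371 (2096 and 2275) and edgeR without the filter 3440 (1752 and 1688). Upper-quartile factors gave 513 lower (775 higher) and the GC and length offsets 886 lower. Leaving out 1 library gave 0 to 4957 genes in all, 0 to 2582 higher and 0 to 2375 lower. The 0 came without BV+ NRF1 OE replicate 1, Ctrl replicate 1 or Ctrl replicate 2, the 4957 without BV− NRF1 OE replicate 2, and counts also moved by over 1.5 times without BV− NRF1 OE replicate 1 (2370) or 3 (665), BV− Ctrl replicate 1 (534) or 2 (891), and, for genes lower, BV+ NRF1 OE replicate 2 (476). The cause was not tested.

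With the replicate number as a block, 3 genes were called (2 higher, 1 lower). The labels give no shared source for the numbers, and deviations of same-numbered libraries had a correlation of −0.0272 between BV+ NRF1 OE and BV+ Ctrl, −0.192 between BV+ and BV− Ctrl, −0.35 and −0.507 between BV+ and BV− NRF1 OE and 0.414 and 0.434 between BV− NRF1 OE and BV− Ctrl. With numbers 1 and 2 of the BV− groups crossed, a block chosen after these values were seen, 3494 genes were called (2213 higher, 1281 lower) and 3 for the difference between fractions. Counted by an unadjusted p under 0.05 and a log2 fold change beyond 0.58 in either direction, 2870 genes passed (1653 and 1217). Leaving out 1 library gave 1477 to 3949 in all, 772 to 2331 higher and 665 to 1618 lower (lowest in all and among genes higher without BV+ NRF1 OE replicate 1, and among genes lower without BV+ Ctrl replicate 2), and no filter gave 1895 lower. For the difference between BV+ and BV− effects, in place of 0 genes DESeq2 called 23, edgeR without the filter 108 and leaving out 1 library 0 to 33, the 33 without BV− NRF1 OE replicate 2. Among genes chosen by the naming rule and called, none changed sign under any alternative run.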
